A study of Homo sapiens with 48 samples.

Results

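The genes described here encode the nuclear lamins and a small set of chromatin and nuclear envelope proteins that are read out in senescence. These are LMNA, LMNB1 and LMNB2, the lamin-binding proteins LBR and TMPO, and the high mobility group (HMG) proteins HMGA1, HMGA2, HMGB1, HMGB2 and HMGB3. They were taken by gene name. The 10 genes were found among 19509 entries of the gene table with counts, and all 10 were among the 9991 entries with at least 10000 counts over the series, which were tested. The table of splicing events held 159 events in these genes of 363278 in all.

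RNA sequencing was carried out on 48 libraries of IMR90 ER:RAS cells, a line of human lung fibroblasts that carries an oncogenic RAS fused to the ligand-binding domain of the oestrogen receptor. 4-hydroxytamoxifen (4OHT) switches the fusion on and brings on oncogene-induced senescence, and cells given the solvent DMSO served as the non-induced control. On day 6 of either treatment the cells were transfected with siRNAs to the splicing factor SF3B1 (siSF3B1-13 or siSF3B1-16), to the splicing factor RBM39 (siRBM39-06 or siRBM39-08), or with non-targeting siRNAs (siNT1 or siNT2), and RNA was taken 2 days later in medium with 0.5% serum. The 2 siRNAs of a target were pooled, which gave 6 groups of 8 libraries: DMSO siNT, 4OHT siNT, DMSO siSF3B1, 4OHT siSF3B1, DMSO siRBM39 and 4OHT siRBM39, each with 4 libraries per siRNA. Every group, the DMSO groups included, carried the ER:RAS transgene and was transfected, and all came from 1 engineered line, so an untransfected or non-transgenic control was not analysed here. For the 4 siNT2 libraries in 4OHT the treatment label names siNT1 while the title names siNT2, and the title was followed. The labels number 4 libraries per siRNA without saying whether they came from separate cultures, while the study's methods call replicates of cultured cells independent experiments but give 3 of them for this experiment. The p-values measure the spread between these libraries, which may in part be technical.

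Lamins are intermediate filament proteins that line the inside of the inner nuclear membrane. A-type lamins come from LMNA, which is expressed in differentiated cells, and B-type lamins from LMNB1 and LMNB2. LBR and the LAP2 proteins made from TMPO bind B-type or A-type lamins, and LBR and some LAP2 proteins hold heterochromatin at the nuclear edge. Loss of lamin B1 is a widely used marker of senescence. HMGA proteins bind AT-rich DNA in the minor groove and take part in senescence-associated heterochromatin, and HMGB proteins bend DNA without sequence preference. HMGB1 is also released from damaged and senescent cells as an alarm signal, and HMGB2 is known for its loss from chromatin when cells enter senescence.

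Libraries held between 31467221 and 52734636 counts, with a median of 39656598. The knockdowns were checked first, on CPM (the counts of a gene scaled to a fixed library size). SF3B1 lay at 311 to 396 CPM in DMSO siNT and at 30.4 to 35.2 CPM in DMSO siSF3B1, and at 315 to 340 CPM in 4OHT siNT and 25.3 to 30.7 CPM in 4OHT siSF3B1. RBM39 lay at 158 to 185 CPM in DMSO siNT and at 24.2 to 31 CPM in DMSO siRBM39, and at 115 to 127 CPM in 4OHT siNT and 13.8 to 18.4 CPM in 4OHT siRBM39. All 8 fibroblast markers passed the count filter, although 7 of them fell with 4OHT in siNT, by 5.05 on the log2 scale for DCN, a matrix proteoglycan, and their summed level (reads corrected for mappable length and library size, cRPKM) went from 11300–12340 to 4450–4648. Of the other lineages only KRT8 of 4 epithelial markers passed, and 0 of 4 endothelial and 0 of 4 leukocyte markers did, with summed levels of at most 0.97 and 0.22 cRPKM. All 11 senescence markers tested rose with 4OHT in siNT, most for the cytokine gene IL1B, which went from 0.07–0.31 to 1847–2217 cRPKM, and all 10 proliferation markers tested fell, most for MKI67 (log2 fold change −3.58). One library, 4OHT siRBM39-08 replicate 4, stood apart from its group, with 46.4 cRPKM of summed epithelial markers (31.7 of it KRT8) against 3.97 to 7.96 in the other 7.

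With 4OHT in siNT, all 10 genes changed, 3 upwards and 7 downwards, where 78.1% of all genes tested passed the same threshold, 39% upwards and 39.1% downwards (edgeR quasi-likelihood test, Benjamini-Hochberg adjusted p under 0.05). HMGB2 and LMNB1 fell furthest, LBR, LMNA, HMGB1, HMGB3 and TMPO fell by less, HMGA2 rose most, and HMGA1 and LMNB2 rose slightly. In all 10 the ranges of the 8 DMSO siNT and 8 4OHT siNT libraries did not overlap, which held for 71.4% of all genes. The median log2 fold change of the 10 genes was −0.65 against 0.00 over all genes, and their median absolute log2 fold change was 0.74 against 0.43. In bulk RNA, fewer cells that express a gene and less RNA per cell cannot be told apart.

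Knockdown of SF3B1 changed the genes differently in the 2 treatments. In DMSO, LMNB1, LBR, TMPO, LMNB2 and HMGB1 fell and HMGA1 rose, 6 genes in all against a background of 72.7% of genes called (36.5% higher and 36.2% lower). In 4OHT, TMPO, HMGB2, HMGB3 and HMGB1 rose and HMGA2, LBR and LMNB2 fell, 7 genes against a background of 77.0% (39.4% higher and 37.6% lower). The ranges of the siSF3B1 and siNT libraries were apart for 4 genes in DMSO (54.9% of all genes) and for 8 genes in 4OHT (68.9% of all genes). The difference between the effects of siSF3B1 in 4OHT and in DMSO passed the test for 6 genes, upwards for TMPO, HMGB2, LMNB1, HMGB3 and HMGB1 and downwards for HMGA2, where 37.8% of all genes passed (17.9% upwards and 19.9% downwards). The median absolute size of that difference was 0.64 for the 10 genes and 0.20 over all genes on the log2 scale.

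Knockdown of RBM39 was compared in the same way. In DMSO, HMGB1 and LMNB2 rose and LBR and TMPO fell, 4 genes against a background of 46.1% (23.9% higher and 22.2% lower), with ranges apart for 3 of the 10 genes and 20.5% of all genes. With siRBM39-06 alone 9 of the 10 genes were called in DMSO, in a fit whose share of all genes called was not counted. In 4OHT, HMGB2, LMNA, HMGA1, HMGB1 and HMGB3 rose and LBR fell, 6 genes against a background of 56.4% (32.2% higher and 24.3% lower), with ranges apart for 3 of the 10 and 25.1% of all genes. The effect of siRBM39 differed between treatments for HMGB2 and HMGB1, both upwards, against a background of 14.1% (7.28% upwards and 6.87% downwards). In the remaining contrasts 9 of the 10 genes passed with 4OHT in siSF3B1 (background 75.7%), 9 with 4OHT in siRBM39 (75.5%), 3 with siSF3B1 against siRBM39 in DMSO (67.7%) and 9 with the same in 4OHT (71.4%). The siSF3B1 and siRBM39 comparisons of a treatment use the same siNT libraries, so their values are given side by side and not as a test of one another.

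**Figure D1:**
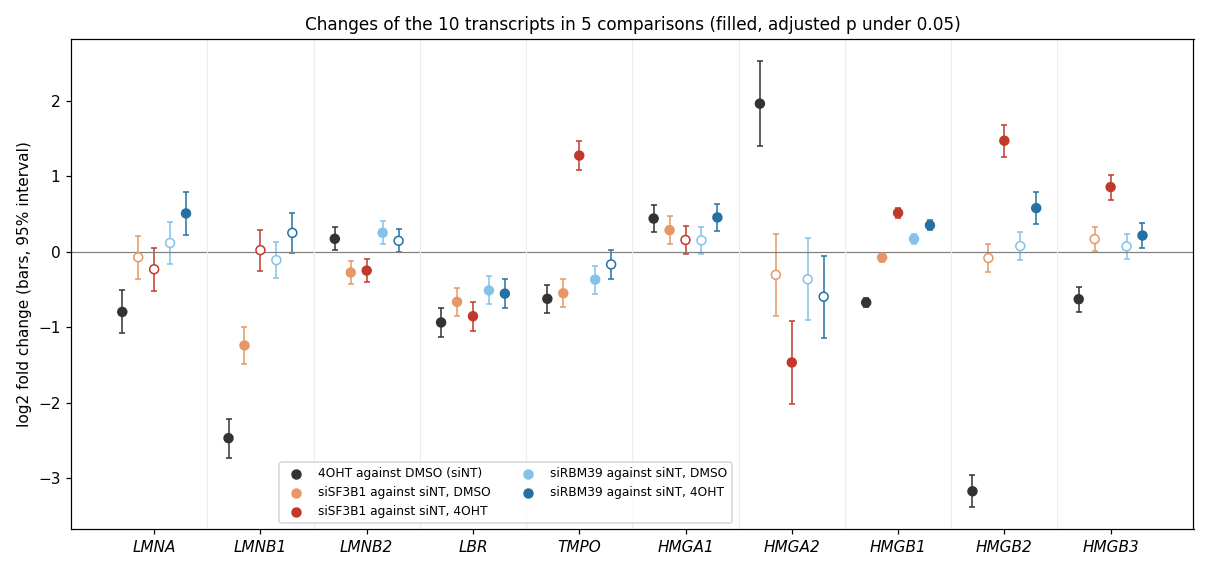
Log2 fold change (y axis) of each of the 10 genes (x axis) in 5 comparisons, with 95% intervals from the edgeR quasi-likelihood fit. Filled points passed an adjusted p under 0.05: all 10 with 4OHT in siNT, 6 and 7 with siSF3B1 in DMSO and 4OHT, and 4 and 6 with siRBM39 in DMSO and 4OHT.

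Levels can be compared between genes only per length. On the cRPKM scale HMGA1 stood highest in DMSO siNT, at a mean of 429.9 cRPKM and rank 112 of the 9991 genes, followed by LMNA at 240.6 (rank 217), HMGB1 at 64.6 (rank 993), HMGA2 at 56.4 (rank 1154) and LMNB2 at 24.6 (rank 2806). LBR at 11.6, HMGB2 at 10.8, HMGB3 at 8.66, TMPO at 7.56 and LMNB1 at 6.78 lay in the middle and lower ranks. Among these the library ranges of LBR (10.4 to 12.9) and HMGB2 (9.55 to 12.2) overlapped, as did those of TMPO (7.09 to 8.13) and LMNB1 (6.20 to 7.96), and HMGA2 (47.4 to 64.8) overlapped HMGB1 (62.7 to 66.9) at its upper end. In 4OHT siNT HMGA2 had moved to second place at 218 cRPKM (rank 259), above LMNA at 138 (rank 449), while LMNB1 at 1.22 and HMGB2 at 1.19 were the lowest of the 10 (ranks 9639 and 9656) with overlapping ranges. B-type lamin mRNA came mainly from LMNB2 in both groups, at 24.6 cRPKM in DMSO siNT and 27.6 cRPKM in 4OHT siNT.

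**Figure D2:**
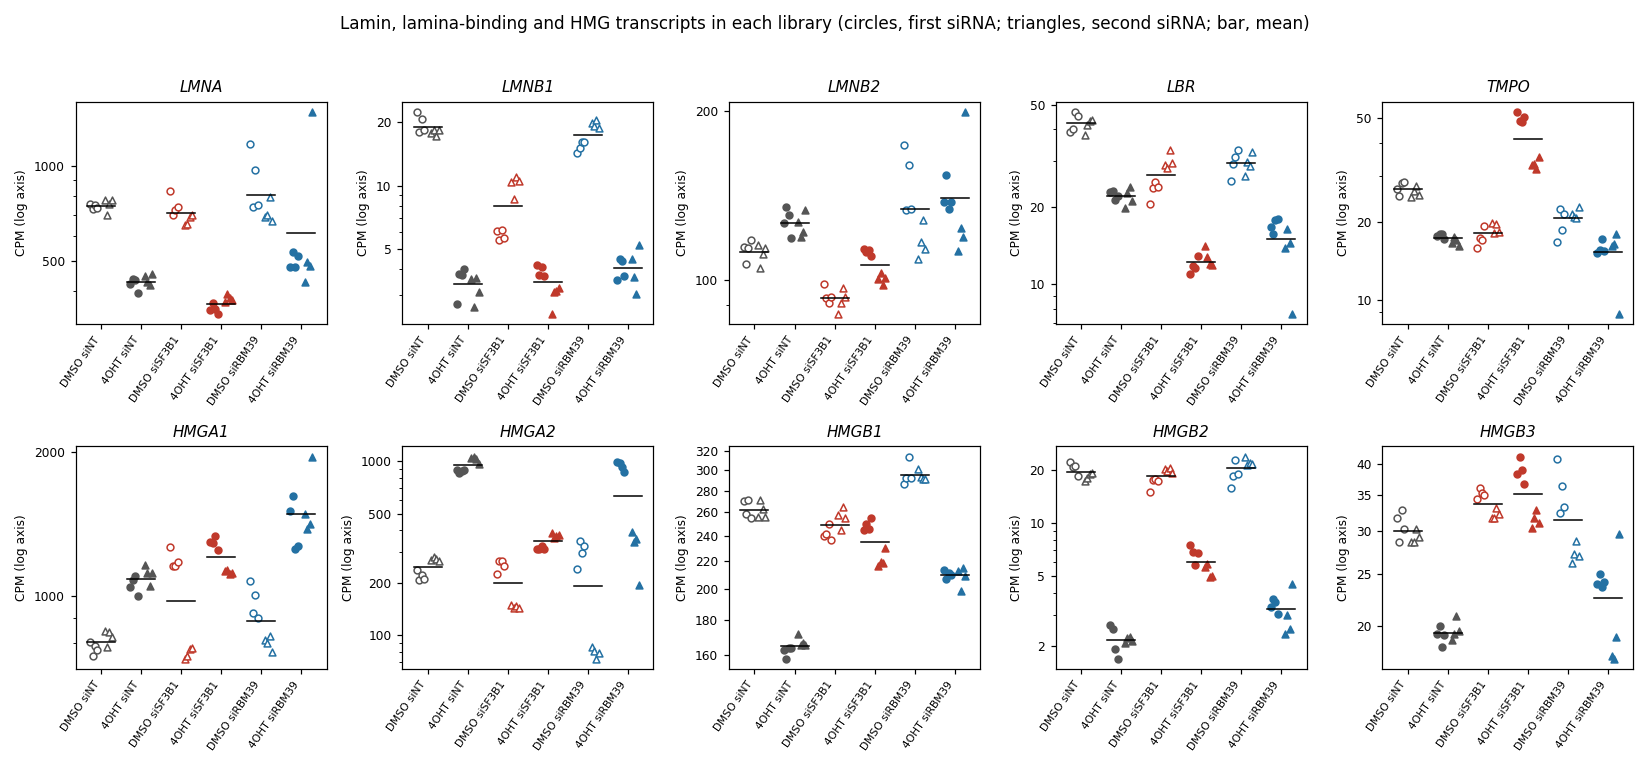
CPM on a log axis of the 10 genes in each of the 48 libraries, by group, with circles for the first and triangles for the second siRNA of each target and a bar at the mean. HMGB2 and LMNB1 lie far lower in the 3 4OHT groups than in DMSO siNT, TMPO is highest in 4OHT siSF3B1, and HMGA2 splits by siRNA in the siRBM39 groups.

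Most events in these genes were thinly covered or varied little. Inclusion is given as percent spliced in (PSI), the share of junction reads that include an exon or retain an intron. The 159 events were 66 exons, 56 introns, 10 alternative 3′ sites and 27 alternative 5′ sites. Of these, 107 had a PSI in all 48 libraries, and 57 also had at least very low coverage in each. Of the 57, 5 had a range of at least 5 points. Once introns whose junction and intron body reads were unbalanced were left out, 3 remained. In that fit of 12705 exons and introns 1 event, HMGA2 exon 4, passed with siSF3B1 in DMSO (background 20.4%) and in 4OHT (23.8%), and 0 passed with 4OHT in siNT (0.960%) or with siRBM39 in DMSO (5.67%) or 4OHT (6.35%), where 0 of the 3 had an unadjusted p under 0.05. Calls need an adjusted p under 0.05 in limma on logit PSI and a difference of at least 5 points. With no minimum coverage score and no balance filter, a setting chosen after the values were seen, 33 events of 8 genes entered a fit of 87444, and 1, 11, 12, 4 and 4 of them passed in these comparisons, in that order, against backgrounds of 0.333%, 17%, 21.4%, 4.08% and 4.66%. Calls from that setting are marked below as low-coverage calls. In both siSF3B1 comparisons all called exons went down and all called introns went up.

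LMNA, which encodes lamins A and C, was among the most abundant transcripts of the set and fell with 4OHT. Its levels, given here and for all genes as the lowest, median and highest of 8 libraries, were 696, 751 and 777 CPM in DMSO siNT and 396, 431 and 454 CPM in 4OHT siNT. The fall was 1.74-fold (log2 fold change −0.80 ± 0.14 SE, edgeR adjusted p = 3.2e-06). With siSF3B1 LMNA lay at 650.1, 698 and 833 CPM in DMSO, overlapping siNT (log2 fold change −0.07, adjusted p = 0.654). In 4OHT siSF3B1 it lay at 339.6, 368 and 391 CPM, with every library below every 4OHT siNT library, yet the test over all 48 libraries gave −0.23 with an adjusted p of 0.138. The spread that this test uses contains a library at 1481 CPM in 4OHT siRBM39, where the other 7 lay at 428 to 532 CPM. Without that library the same difference had an adjusted p of 0.0022, and the rise of LMNA with siRBM39 in 4OHT went from 0.51 ± 0.14 (adjusted p = 0.00271) to 0.18 (adjusted p = 0.028). In DMSO siRBM39 the levels were 669.7, 745 and 1172 CPM, and the difference was 0.12 (adjusted p = 0.539). The highest of these, siRBM39-06 replicate 1, held 23.3 cRPKM of summed epithelial markers against 10.4 to 15.5 in the other 7. Whether the epithelial markers and the LMNA level of these libraries are linked was not tested.

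LMNB1, the B-type lamin whose loss marks senescence, was one of the lowest of the set and one of those that moved most. It lay at 17.2, 18.3 and 22.5 CPM in DMSO siNT and at 2.64, 3.63 and 4.00 CPM in 4OHT siNT. The groups were far apart, and LMNB1 fell 5.53-fold (log2 fold change −2.47 ± 0.13, adjusted p = 4.6e-22). In DMSO siSF3B1 it was at 5.49, 7.40 and 11 CPM, every library below every DMSO siNT library, a 2.36-fold fall (log2 fold change −1.24 ± 0.12, adjusted p = 2.7e-12). The siRNAs differed in size but not in direction, with 5.49 to 6.14 CPM for siSF3B1-13 and 8.67 to 11 CPM for siSF3B1-16. In 4OHT siSF3B1 LMNB1 lay at 2.45, 3.47 and 4.20 CPM and overlapped 4OHT siNT throughout, with a log2 difference of 0.02 and a 95% interval of −0.25 to 0.29. The effect of siSF3B1 in 4OHT was 1.26 ± 0.18 higher on the log2 scale than in DMSO (adjusted p = 3.5e-07). LMNB1 was still 2.31-fold lower in 4OHT than in DMSO with siSF3B1 in both (log2 fold change −1.21 ± 0.13, adjusted p = 2.7e-11).

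LMNB1 did not pass the test with RBM39 knockdown over both siRNAs. It was at 14.3, 17.4 and 20.4 CPM in DMSO siRBM39 (log2 fold change −0.11, adjusted p = 0.467) and at 3.06, 4.04 and 5.23 CPM in 4OHT siRBM39 (0.25, adjusted p = 0.112), and both groups overlapped their siNT controls. With siRBM39-06 alone the DMSO value was −0.37 and passed, and with siRBM39-08 alone it was 0.13. Compared directly in DMSO, LMNB1 was 2.19-fold lower with siSF3B1 than with siRBM39 (log2 fold change −1.13 ± 0.12, adjusted p = 5.4e-11), a contrast that uses no siNT library. Proliferation markers moved with LMNB1 in part. With siSF3B1 in DMSO 8 of the 10 tested fell, TOP2A, a topoisomerase of dividing cells, by most (log2 fold change −3.14), and PCNA (0.32) and MCM2 (0.26), both of the replication machinery, rose. With siRBM39 in DMSO only FOXM1 (−0.24) fell and MCM5 (0.26) and PCNA (0.26) rose. Of all genes tested 36.5% rose and 36.2% fell with siSF3B1 in DMSO, and 23.9% rose and 22.2% fell with siRBM39 in DMSO. The part of dividing cells in the LMNB1 result was not tested.

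LMNB2, the other B-type lamin, changed little in level, while its splicing changed with siSF3B1 in a fit without the balance filter. Its levels were 105, 114 and 118 CPM in DMSO siNT and 119, 126 and 135 CPM in 4OHT siNT, just apart, with a log2 fold change of 0.17 ± 0.08 (adjusted p = 0.042) that lost its call when either replicate 2 or replicate 3 of every siRNA was left out. With siSF3B1 it was at 86.9, 92.8 and 98.3 CPM in DMSO and 97.8, 106.5 and 113 CPM in 4OHT, below all siNT libraries of its treatment. The falls were 0.28 ± 0.08 (adjusted p = 0.0015) and 0.25 ± 0.08 (adjusted p = 0.00347) on the log2 scale. With siRBM39 LMNB2 was at 109, 130.5 and 174 CPM in DMSO, a rise of 0.25 ± 0.08 (adjusted p = 0.00677, lost without replicate 3 of every siRNA) with overlapping ranges, and at 112.5, 135.5 and 199 CPM in 4OHT (0.14, adjusted p = 0.107). In DMSO siRBM39-06 gave 133 to 174 CPM and siRBM39-08 gave 109 to 128 CPM. With siRBM39-08 alone the difference was 0.07 (adjusted p = 0.681).

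Introns 10 and 11 of LMNB2 stayed in more of its RNA when SF3B1 was knocked down. The whole of intron 10, 124 bases on the minus strand of GRCh37 at chr19:2431657-2431780 between coding exons, is shown with the intron in capitals and 10 exon bases on each side in lower case, and intron 11, 595 bases at chr19:2430951-2431545, by its start and its end, because these are the events with the clearest change in retention.

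LMNB2 intron 10: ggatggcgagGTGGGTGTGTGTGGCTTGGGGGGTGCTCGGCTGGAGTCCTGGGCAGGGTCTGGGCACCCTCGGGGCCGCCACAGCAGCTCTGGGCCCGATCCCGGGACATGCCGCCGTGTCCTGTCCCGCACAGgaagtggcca
LMNB2 intron 11, start: caacagGTAGGACCCCTGTGCCCACTTGCG
LMNB2 intron 11, end: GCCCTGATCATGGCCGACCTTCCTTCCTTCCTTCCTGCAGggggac

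Both introns begin with GT and end with AG, and their GC contents were 72.6% and 59.7%. Intron 10 had a PSI of 0 to 2.44 in DMSO siNT and 0 to 2.63 in 4OHT siNT. In DMSO siSF3B1 it was at 6.04, 12.8 and 21.3 and in 4OHT siSF3B1 at 11.4, 15.2 and 24.7, above every siNT library, while with siRBM39 it stayed within 0 to 2.46 and 0 to 2.76. Intron 11 rose further, from 0.65–2.70 to 36.3, 48.3 and 59.3 in DMSO siSF3B1 and from 0–4.81 to 42.5, 54.5 and 64.6 in 4OHT siSF3B1. With the balance filter left off, a change made after the values were seen, the differences for intron 11 were 45.6 points (adjusted p = 1.6e-19) in DMSO and 52.6 points in 4OHT, and those for intron 10 were 12 points (adjusted p = 1.6e-11) and 15.8 points (adjusted p = 2.6e-13). That fit held 15984 events, of which 25.5% and 29.9% passed in the 2 comparisons. Reads at the exon-intron junctions and reads in the intron body were unbalanced in 6 libraries for intron 10 and in 13 for intron 11. That is why the stricter fit left both introns out. With siRBM39 intron 11 lay at 0.52 to 5.35 in DMSO and at 2.64 to 10.9 in 4OHT, and the 3.90-point difference in 4OHT was under the 5 points required. The differences of LMNB2 intron 4, 2.82 and 1.87 points with siSF3B1, were under the 5 points required.

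LBR, a membrane protein that binds lamin B and heterochromatin protein 1, was lower in each of the 5 comparisons. It was at 38.2, 42.4 and 46.9 CPM in DMSO siNT and at 19.8, 22.4 and 23.9 CPM in 4OHT siNT, a 1.91-fold fall (log2 fold change −0.94 ± 0.10, adjusted p = 2.3e-12). With siSF3B1 it was at 20.4, 26.7 and 33.3 CPM in DMSO (−0.66 ± 0.10, adjusted p = 2.9e-08) and at 11, 11.9 and 14.1 CPM in 4OHT (−0.85 ± 0.10, adjusted p = 8.2e-11). With siRBM39 it was at 25.2, 29.6 and 33.1 CPM in DMSO (−0.51 ± 0.09, adjusted p = 1.3e-05) and at 7.63, 16.0 and 17.8 CPM in 4OHT (−0.56 ± 0.10, adjusted p = 3.5e-06). In all 5 comparisons the ranges were apart. The 7.63 CPM belonged to the library that stood apart, where the next lowest was 13.8 CPM, and without it the fall in 4OHT siRBM39 was 0.46. The effects in 4OHT and DMSO did not differ beyond their error for siSF3B1 (difference −0.19, adjusted p = 0.284).

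Splicing of LBR changed with siSF3B1 in low-coverage calls. Exon 7, an exon called in both treatments, is shown with the exon in capitals and its 30 upstream and 10 downstream intron bases in lower case, from the minus strand of GRCh37 at chr1:225602980-225603034. It is 55 bases long, a length that is not a multiple of 3.

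LBR exon 7: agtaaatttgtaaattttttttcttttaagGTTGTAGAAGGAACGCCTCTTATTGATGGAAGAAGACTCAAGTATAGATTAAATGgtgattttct

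Exon 7 was at a PSI of 100 in every siNT library of both treatments, at 69.4 to 100 in DMSO siSF3B1 and at 49.3 to 100 in 4OHT siSF3B1. The falls of 15.3 points (adjusted p = 0.000194) and 15.7 points (adjusted p = 0.00153) rest on few reads, and with siSF3B1-13 alone neither passed. Exon 9 fell by 5.45 points (adjusted p = 0.000532) in DMSO, and exon 12 fell by 11.4 points (adjusted p = 0.00125) in 4OHT. Introns of LBR rose as well: intron 8 by 33.1 points (adjusted p = 0.000255) in DMSO and by 48.4 (adjusted p = 2.5e-07) in 4OHT, intron 12 by 22.2 (adjusted p = 0.0193) and 32.6 (adjusted p = 0.00628), and intron 10 by 50.1 in 4OHT (adjusted p = 0.000715). With siRBM39 intron 8 lay 17.4 points above siNT in DMSO (adjusted p = 0.0786) and 13.8 points above in 4OHT (adjusted p = 0.142), and was not called. Between 0 and 53 reads per library stood behind these LBR values.

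TMPO, which encodes the LAP2 proteins, moved in opposite directions with siSF3B1 in the 2 treatments. It was at 25, 26.5 and 28.6 CPM in DMSO siNT and at 16.2, 17.4 and 18 CPM in 4OHT siNT, a 1.54-fold fall (log2 fold change −0.62 ± 0.10, adjusted p = 1.2e-07). DMSO siSF3B1 had 15.9, 18.2 and 19.8 CPM, below every DMSO siNT library (−0.55 ± 0.10, adjusted p = 1.9e-06). 4OHT siSF3B1 had 31.8, 41.9 and 53.0 CPM, above every 4OHT siNT library and above every DMSO siNT library, a 2.42-fold rise over 4OHT siNT (log2 fold change 1.27 ± 0.10, adjusted p = 2.6e-16). Both siRNAs gave the rise, siSF3B1-13 with 48.4 to 53.0 CPM and siSF3B1-16 with 31.8 to 35.3 CPM. The effects in 4OHT and DMSO differed by 1.82 ± 0.14 on the log2 scale (adjusted p = 5.6e-15). With siSF3B1 in both, TMPO was 2.29-fold higher in 4OHT than in DMSO (log2 fold change 1.20 ± 0.10, adjusted p = 1.3e-15), the opposite of its direction in siNT. With siRBM39 TMPO was at 16.7, 21.1 and 22.9 CPM in DMSO (−0.37 ± 0.10, adjusted p = 0.00133) and at 8.87, 15.9 and 17.9 CPM in 4OHT (−0.17, adjusted p = 0.133), where the 8.87 again belonged to the library that stood apart and the next lowest was 15.1. Without that library the difference in 4OHT was −0.09 (adjusted p = 0.377). Compared directly in 4OHT, TMPO was 2.71-fold higher with siSF3B1 than with siRBM39 (1.44 ± 0.10, adjusted p = 6.6e-18).

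Neighbouring TMPO exons were skipped more often with either knockdown, also in low-coverage calls. Exons 5 and 6 of its MANE Select transcript lie side by side on the plus strand of GRCh37, at chr12:98938008-98938127 and chr12:98938220-98938315, and are 120 and 96 bases long, each a multiple of 3. They are coding exons and are shown as examples of TMPO exons called with both knockdowns, with exon bases in capitals and 30 upstream and 10 downstream intron bases in lower case.

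TMPO exon 5: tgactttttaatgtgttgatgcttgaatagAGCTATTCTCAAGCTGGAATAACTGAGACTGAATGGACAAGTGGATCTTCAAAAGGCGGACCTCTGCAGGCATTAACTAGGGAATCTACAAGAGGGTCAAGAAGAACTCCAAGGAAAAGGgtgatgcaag
TMPO exon 6: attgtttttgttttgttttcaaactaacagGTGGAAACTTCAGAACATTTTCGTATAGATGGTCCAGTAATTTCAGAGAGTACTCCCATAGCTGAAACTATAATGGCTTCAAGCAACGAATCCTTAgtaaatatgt

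Exon 6 had a PSI of 73.4, 89.3 and 100 in DMSO siNT and of 46.7, 100 and 100 in 4OHT siNT. With siSF3B1 it was at 14.3, 51.5 and 65.7 in DMSO and at 14.3, 25.3 and 52.9 in 4OHT, and with siRBM39 at 34.4, 39.5 and 57.6 in DMSO and at 15.2, 25 and 70.7 in 4OHT. In DMSO all 8 libraries of either knockdown lay below all of siNT, and in 4OHT 7 of 8 with siSF3B1 and 6 of 7 with siRBM39 did. The falls were 42.5 points (adjusted p = 0.00025) and 60.3 points (adjusted p = 4.8e-08) with siSF3B1 in DMSO and 4OHT, and 44.1 points (adjusted p = 0.00114) and 56.8 points (adjusted p = 2.3e-06) with siRBM39. Exon 5 differed from siNT by −34.4 and −50.9 points with siSF3B1 and by −36.5 and −50.0 points with siRBM39, with adjusted p-values between 2.2e-05 and 0.0366. The exons share skipping reads, so they are not separate evidence. With 4OHT in siNT neither was called, at 6.49 points for exon 5 and 1.53 for exon 6.

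The reads of a group's 8 libraries were also pooled. In DMSO exon 6 was included in 85.6% of pooled reads with siNT, 45.6% with siSF3B1 and 44.4% with siRBM39. In 4OHT it was included in 87.3%, 31% and 29% in the same order. The controls differed by siRNA, with a mean PSI of exon 6 of 94.6 for siNT1 and 79.8 for siNT2 in DMSO, above the group means of every knockdown siRNA in either case. For exon 5 3 to 52 reads per library stood behind a PSI. With the second siRNA of each target alone, 4 against 4 libraries, exon 5 lost its call in all 4 knockdown comparisons and exon 6 in all but 4OHT siSF3B1, while the directions stayed. A 96-base TMPO exon that matched no annotated exon fell by 7.10 points with siRBM39 in 4OHT (adjusted p = 0.0103) and lost its call with either siRNA alone.

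**Figure D3:**
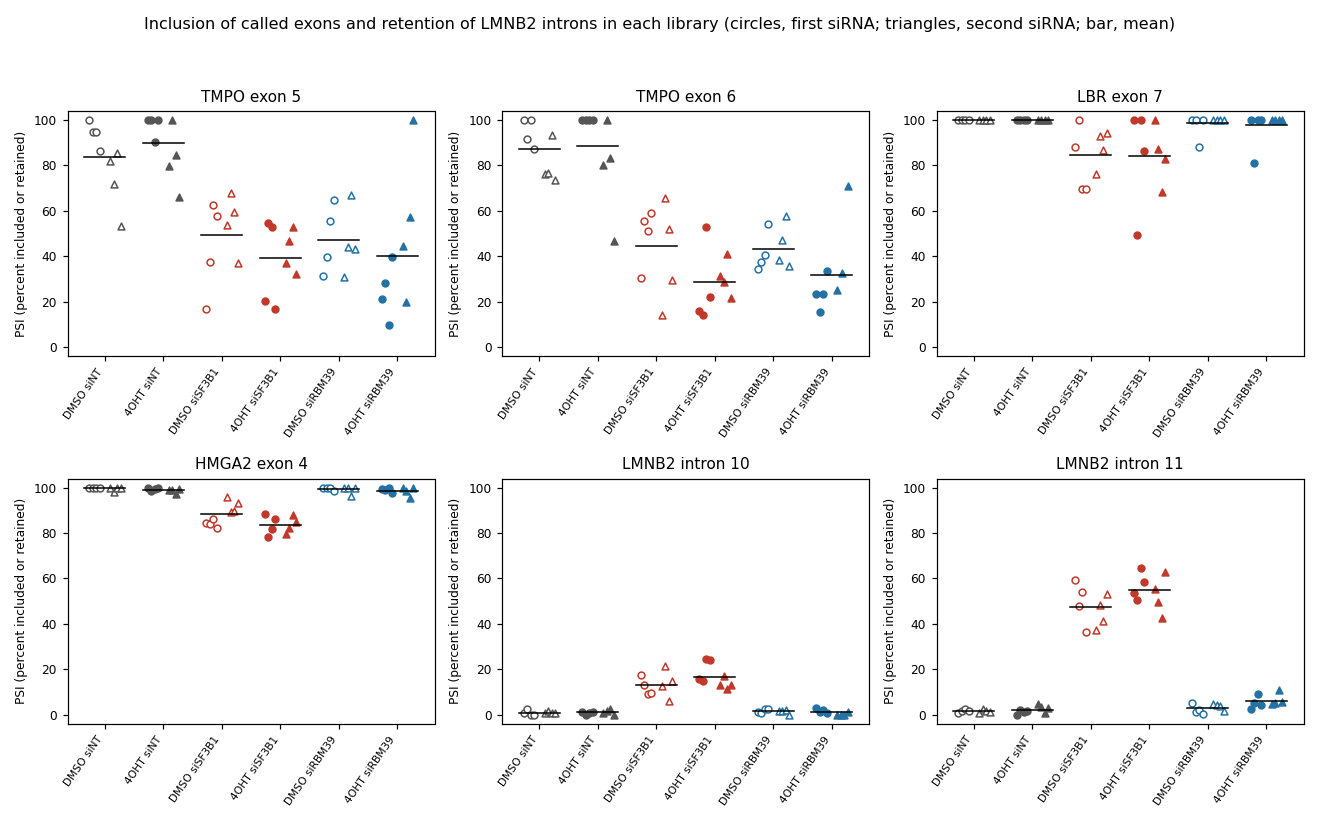
Percent spliced in (y axis, 0 to 100) of TMPO exons 5 and 6, LBR exon 7, HMGA2 exon 4 and LMNB2 introns 10 and 11 in each library by group, with circles for the first and triangles for the second siRNA of each target and a bar at the mean. The TMPO exons are lower with either knockdown, while HMGA2 exon 4 and LBR exon 7 are lower and the LMNB2 introns are higher with siSF3B1.

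HMGA1, an architectural protein that binds AT-rich DNA, was the most abundant of the 10 in every group per length and rose with 4OHT. It was at 750.5, 796 and 848 CPM in DMSO siNT and at 1002, 1092 and 1166 CPM in 4OHT siNT, a 1.36-fold rise (log2 fold change 0.44 ± 0.09, adjusted p = 3.8e-05). In DMSO siSF3B1 it was at 741, 969 and 1270.0 CPM, and the rise of 0.29 ± 0.09 (adjusted p = 0.0055) came from siSF3B1-13, at 1157 to 1270.0 CPM, while siSF3B1-16, at 741 to 782 CPM, gave −0.11. In 4OHT siSF3B1 it was at 1113, 1192 and 1335 CPM (0.15, adjusted p = 0.123). With siRBM39 it was at 766, 864 and 1076 CPM in DMSO (0.15, adjusted p = 0.186) and at 1255, 1451 and 1961 CPM in 4OHT, above every 4OHT siNT library (0.45 ± 0.09, adjusted p = 5.2e-05, and 0.39 without the library that stood apart).

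Intron 1 of HMGA1, 240 bases long, was the only event called with 4OHT in siNT, in a low-coverage call. Its PSI was 1.96, 4.80 and 9.80 in DMSO siNT and 10.2, 13.9 and 20.8 in 4OHT siNT, 9.45 points higher (adjusted p = 0.0156). With siSF3B1 it was at 10.7, 17.9 and 27.3 in DMSO (13.4 points, adjusted p = 1.6e-05) and at 20.7, 35.9 and 46.3 in 4OHT (20.2 points, adjusted p = 0.000215), and with siRBM39 at 6.98, 13.0 and 20 in DMSO (8.11 points, adjusted p = 0.00741). In 4OHT siRBM39 it was at 3.45, 18.6 and 31.7 and was not called (2.98 points, adjusted p = 1). Junction and intron body reads were unbalanced in 30 of the 48 libraries, and the call with 4OHT in siNT was lost with either non-targeting siRNA alone.

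HMGA2, the second HMGA protein, rose more than any other of the 10 with 4OHT. It was at 206, 251 and 282 CPM in DMSO siNT and at 862, 933 and 1068 CPM in 4OHT siNT, a 3.89-fold rise (log2 fold change 1.96 ± 0.29, adjusted p = 3.9e-08). In 4OHT siSF3B1 it was at 312, 344 and 388 CPM, below every 4OHT siNT library, a 2.76-fold fall (−1.47 ± 0.28, adjusted p = 9.7e-06) with both siRNAs, at 312 to 324 CPM for siSF3B1-13 and 364 to 388 CPM for siSF3B1-16. It remained 1.74-fold higher in 4OHT siSF3B1 than in DMSO siSF3B1 (0.80 ± 0.28, adjusted p = 0.00923). In DMSO siSF3B1 it was at 143, 186 and 268 CPM (−0.31, adjusted p = 0.32). The siSF3B1 effects in 4OHT and DMSO differed by −1.16 ± 0.39 (adjusted p = 0.0168), a call lost without replicate 2 or replicate 3 of every siRNA.

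The siRNAs to RBM39 split HMGA2. In DMSO siRBM39 it was at 72.7 to 84.6 CPM with siRBM39-08 and at 239 to 348 CPM with siRBM39-06, and in 4OHT siRBM39 at 194 to 390 CPM and at 871 to 998 CPM in the same order. The fit over both siRNAs gave −0.37 (adjusted p = 0.289) in DMSO and −0.60 ± 0.28 (adjusted p = 0.0637) in 4OHT. With siRBM39-06 alone the value was 0.48 (adjusted p = 1.4e-05) in DMSO and 0.07 (adjusted p = 0.43) in 4OHT, and with siRBM39-08 alone −1.79 (adjusted p = 5.3e-10) and −1.68 (adjusted p = 7.2e-10). No single change of HMGA2 with RBM39 knockdown can be given from these 2 siRNAs.

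Exon 4 of HMGA2 was the one event of the set called under the strict filters. It is 33 bases long, coding in the MANE Select transcript, on the plus strand of GRCh37 at chr12:66345163-66345195, and is shown with the exon in capitals and its intron flanks in lower case.

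HMGA2 exon 4: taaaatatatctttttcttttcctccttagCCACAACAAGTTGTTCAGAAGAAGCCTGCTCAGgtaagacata

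Its PSI was 98.3, 100 and 100 in DMSO siNT and 97.2, 99.1 and 100 in 4OHT siNT. With siSF3B1 it was at 82.3, 87.8 and 96 in DMSO and at 78.4, 83.5 and 88.4 in 4OHT, with all 8 libraries below all of siNT in each treatment. The falls were 11.6 points (limma adjusted p = 4.6e-12) and 15.4 points (adjusted p = 7.0e-12), and 37 to 301 reads per library stood behind these values. In DMSO the difference was −15.8 points with siSF3B1-13 alone and −7.43 points with siSF3B1-16 alone. With siRBM39 the differences were −0.44 points (adjusted p = 0.857) and −0.32 points (adjusted p = 1). Exon 2 of HMGA2 fell by 3.08 and 2.04 points with siSF3B1, under the 5 points required.

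HMGB1, a DNA-bending protein and alarm signal, changed with very little spread between libraries. It was at 255, 261 and 272 CPM in DMSO siNT and at 158, 164.5 and 172 CPM in 4OHT siNT, a 1.59-fold fall (log2 fold change −0.67 ± 0.03, adjusted p = 4.5e-24). In 4OHT siSF3B1 it was at 217, 237.5 and 255 CPM, above every 4OHT siNT library (0.51 ± 0.03, adjusted p = 2.7e-19), and 4OHT siRBM39 also lay above, at 199, 211 and 215 CPM (0.35 ± 0.03, adjusted p = 5.1e-13). In DMSO siSF3B1 it was at 237, 247 and 265 CPM, 0.08 ± 0.03 lower (adjusted p = 0.0283, lost without replicate 2 or replicate 3) with overlapping ranges, and in DMSO siRBM39 at 286, 292 and 314.5 CPM, 0.17 ± 0.03 higher (adjusted p = 2.0e-05) with ranges apart. The effects in 4OHT exceeded those in DMSO by 0.59 ± 0.04 for siSF3B1 (adjusted p = 1.3e-14) and by 0.18 ± 0.04 for siRBM39 (adjusted p = 0.00406, lost without replicate 1 of every siRNA). With siSF3B1 in both, HMGB1 was 0.08 lower in 4OHT than in DMSO (adjusted p = 0.019), and the fall was absent with siSF3B1-13 alone (0.02).

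HMGB2, its close relative that is abundant in dividing cells, showed the largest fall of the 10 with 4OHT. It was at 17.4, 19.2 and 22.4 CPM in DMSO siNT and at 1.69, 2.17 and 2.62 CPM in 4OHT siNT, a 9.01-fold fall (log2 fold change −3.17 ± 0.11, adjusted p = 3.5e-30). 4OHT siSF3B1 had 4.95, 5.81 and 7.51 CPM, above every 4OHT siNT library and below every DMSO siNT library, a 2.77-fold rise over 4OHT siNT (1.47 ± 0.11, adjusted p = 7.4e-17) with 1.60 and 1.30 for the single siRNAs. 4OHT siRBM39 had 2.34, 3.19 and 4.53 CPM, overlapping 4OHT siNT, a 1.49-fold rise (0.58 ± 0.11, adjusted p = 1.8e-05). HMGB2 stayed 3.07-fold lower in 4OHT than in DMSO with siSF3B1 in both (−1.62 ± 0.10, adjusted p = 4.8e-20) and 6.36-fold lower with siRBM39 in both (−2.67 ± 0.10, adjusted p = 9.1e-28). In DMSO it passed the test with neither knockdown, at 15.1, 18.6 and 20.6 CPM for siSF3B1 (−0.08, adjusted p = 0.41) and 15.9, 21.6 and 24 CPM for siRBM39 (0.07, adjusted p = 0.536). The difference between the effects in 4OHT and DMSO was 1.55 ± 0.14 for siSF3B1 (adjusted p = 2.3e-12) and 0.50 ± 0.14 for siRBM39 (adjusted p = 0.0122), the latter lost without replicate 2, 3 or 4 of every siRNA. In 4OHT HMGB2 was 1.85-fold higher with siSF3B1 than with siRBM39 (0.89 ± 0.10, adjusted p = 1.7e-10).

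Most proliferation markers fell where HMGB2 rose with siSF3B1. In 4OHT siSF3B1 8 of the 10 tested fell, TOP2A by most (log2 fold change −2.18), and MCM2 (0.87) and PCNA (0.40) rose. The summed level of all 13 markers of the list, tested or not, was 53.9 to 64.9 cRPKM against 54.5 to 58.3 in 4OHT siNT. In 4OHT siRBM39 FOXM1 (0.53), MCM2 (0.39), PCNA (0.33) and MCM5 (0.26) passed, all upwards. Of all genes tested 39.4% rose and 37.6% fell with siSF3B1 in 4OHT, and 32.2% rose and 24.3% fell with siRBM39 in 4OHT. The part of dividing cells in the HMGB2 result was not tested.

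HMGB3, the third HMGB protein, lay at 28.6, 29.7 and 32.9 CPM in DMSO siNT and at 18.3, 19.3 and 20.8 CPM in 4OHT siNT, a 1.55-fold fall (log2 fold change −0.63 ± 0.08, adjusted p = 4.5e-09). With siSF3B1 in 4OHT it was at 30.4, 34.8 and 41.3 CPM, above every 4OHT siNT library (0.86 ± 0.08, adjusted p = 1.2e-12). Between 4OHT and DMSO with siSF3B1 in both the difference was 0.06 (adjusted p = 0.52). In DMSO siSF3B1 it was at 31.7, 33.8 and 36.1 CPM (0.17, adjusted p = 0.068), and the effects in the 2 treatments differed by 0.69 ± 0.12 (adjusted p = 6.6e-06). With siRBM39 it was at 26.1, 30.6 and 40.9 CPM in DMSO (0.07, adjusted p = 0.52) and at 17.4, 23.8 and 29.7 CPM in 4OHT, where a rise of 0.21 ± 0.08 (adjusted p = 0.0278) became 0.15 (adjusted p = 0.104) without the library that stood apart.

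Partner genes of the nuclear envelope and chromatin went in both directions with 4OHT. In that comparison in siNT 78.1% of all genes tested passed, 39% upwards and 39.1% downwards. Of 15 tested of 18 inner nuclear membrane and LINC complex genes, the proteins that tie the lamina to the membrane and the cytoskeleton, 5 rose with 4OHT in siNT (ANKLE2 0.64, TOR1AIP2 0.50, TOR1A 0.50, TMEM201 0.41 and LEMD3 0.26 on the log2 scale) and 8 fell, SYNE2, which encodes nesprin-2, by most (−1.73), with a median of −0.22. All 5 prelamin processing genes rose, with a median of 0.48: ZMPSTE24, the protease that matures prelamin A (0.70), ICMT (0.49), RCE1 (0.48), FNTA (0.34) and FNTB (0.16). Of 11 tested of 13 other HMG genes 3 rose (HMGXB3 1.12, SSRP1 0.86 and the mitochondrial TFAM 0.45) and 7 fell, most for the nucleosome-binding HMGN2 (−1.35), with a median of −0.37. Of 10 tested of 11 genes of senescence-associated heterochromatin 4 rose (macroH2A gene H2AFY 0.47, SUV39H1 0.42, CABIN1 0.42, UBN1 0.33) and 4 fell (H2AFY2 −1.19, CBX1 −0.73, CBX5 −0.34 and ASF1A −0.28), with a median of 0.01.

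With siSF3B1 the same lists moved as follows. Over all genes tested 36.5% rose and 36.2% fell in DMSO, and 39.4% rose and 37.6% fell in 4OHT. Inner nuclear membrane and LINC genes rose for 6 in DMSO, TOR1AIP2 by most (1.19), and 3 fell (NRM −0.41, TMEM43 −0.28, SUN2 −0.23), and in 4OHT 8 rose, SYNE2 by most (1.21), and 3 fell (TMEM43 −0.86, SUN2 −0.35, NRM −0.19). ZMPSTE24 (0.93 in DMSO, 0.71 in 4OHT), RCE1 (0.40, 0.39) and ICMT (0.22, 0.34) of the prelamin processing genes rose in both treatments, FNTB in 4OHT (0.37), and FNTA fell in both (−0.64, −0.76). Of the other HMG genes 4 rose in DMSO (among them TFAM 1.00, HMGXB4 0.32 and SSRP1 0.20) and 3 fell (HMGN1 −0.65, UBTF −0.19, HMGXB3 −0.17), and in 4OHT 8 rose, TFAM (0.77) and HMGN2 (0.59) among them, and HMGN1 (−0.75) and HMGXB3 (−0.54) fell. Of the heterochromatin genes SUV39H1 (0.50), H2AFY (0.35) and CBX1 (0.16) rose and UBN1 (−0.36), CABIN1 (−0.29) and H2AFY2 (−0.21) fell in DMSO, and in 4OHT 6 rose, the histone chaperone ASF1A by most (0.59), and H2AFY2 (−0.82), CABIN1 (−0.38) and UBN1 (−0.33) fell.

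The lists were read with siRBM39 in the same way. Among all genes tested 23.9% rose and 22.2% fell in DMSO, and 32.2% rose and 24.3% fell in 4OHT. In DMSO ANKLE2 (0.43), TOR1AIP2 (0.29), TMEM201 (0.23) and TOR1A (0.13) rose and TMEM43 (−0.34), NRM (−0.28) and SUN2 (−0.25) fell, and in 4OHT 6 of the 15 envelope genes rose, ANKLE2 by most (0.75), and TMEM43 fell (−0.82). RCE1 rose in both treatments (0.41, 0.42) and FNTB in 4OHT (0.23), while FNTA (−0.25, −0.26) and ICMT (−0.09, −0.08) fell in both. Of the other HMG genes HMGN3 (0.27) and HMGXB3 (0.10) passed in DMSO, both upwards, and in 4OHT 4 rose, among them HMGN3 (0.40), UBTF (0.37) and SSRP1 (0.27), and HMGN1 (−0.28) fell. Of the heterochromatin genes H2AFY (0.43), H2AFY2 (0.27), CBX1 (0.24) and CBX5 (0.19) rose in DMSO and CBX1 (0.40), H2AFY (0.35), ASF1A (0.30) and CBX5 (0.25) in 4OHT, and HIRA fell in both (−0.26, −0.20).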

How the data were processed

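RNA sequencing libraries of IMR90 ER:RAS cells (48, in 6 groups of 8) were used, grouped by the titles that the labels give. Per the study's methods, the authors aligned reads with vast-tools against the hg19 annotation and merged lanes, and they deposited for each gene raw counts and cRPKM values (RPKM corrected for mappable length), and for each splicing event PSI in percent with text scores of the coverage behind it. Coordinates of the deposited events lay in GRCh38 although hg19 is named, so events were matched to annotated exons whose GRCh38 ends the GENCODE annotation for GRCh37 records, and the GRCh37 positions of those exons and introns are given. The deposited CPM table was not used.

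Counts were tested with edgeR 4.0.16 in R 4.3.3 (TMM scaling, at least 10000 counts over all libraries, 6 group means, quasi-likelihood test, Benjamini-Hochberg over 9991 genes). CPM is printed from the same scaling. PSI was tested with limma 3.58.1 on the logit of 0.01 plus 0.98 of the fraction, over 12705 exons and introns whose PSI ranged over at least 5 points, leaving out introns with a balance p under 0.05. Alternative splice sites were fitted apart (874 events, none of them in these genes). The scripts were tested on simulated data. Tables and figures used Python 3.11.15, numpy 2.4.6, pandas 2.3.3 and matplotlib 3.10.9. Totals of 31467221 to 52734636 counts set the precision, and all 72 pairs of libraries of 1 siRNA and treatment differed by more than sampling noise.

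The genes, partner lists and naming rule were chosen with earlier results of these data known. From each partner list the largest rise and fall per comparison were named, and all members where 5 or fewer passed in a direction, for the 4 lists of envelope, prelamin, HMG and heterochromatin genes. Of the marker lists, leading genes are named. A few items that the rule names are not reported here. Alternatives were DESeq2 1.42.0, limma-voom, other scalings and count filters, a 1.5-fold minimum, single siRNAs, a replicate block and leaving out each replicate. Dropping the balance filter, dropping the coverage minimum (PSI in at least 7 of 8 libraries per group), and the library left out of the splicing fits were chosen after seeing the data.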

Additional observations from a re-analysis of the deposited data

Results flagged for a closer look

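In 1 of 8 libraries of 4OHT siRBM39, siRBM39-08 replicate 4, LMNA was far above the others at 1481 CPM, LBR far below at 7.63 CPM and TMPO far below at 8.87 CPM. The gap to the nearest library was 0.902, 0.607 and 0.692 of the group's range, above Dixon's critical value of 0.526 for 8 samples. All 60 combinations of gene and group were checked, and chance gives about 1 such gap in 20 groups, so some were due among the 60. The gaps that passed all lay in this library. The same library held 34283723 counts and the highest summed epithelial markers of its group, and their part in these values was not tested.

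The effect of siSF3B1 differed between 4OHT and DMSO, by the test of the difference itself, for TMPO (1.82 on the log2 scale), HMGB2 (1.55), LMNB1 (1.26), HMGB3 (0.69), HMGB1 (0.59) and HMGA2 (−1.16). The effect of siRBM39 differed for HMGB2 (0.50) and HMGB1 (0.18).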

How the results depend on the processing

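Over 70 gene results in 7 comparisons, the alternatives gave 910 values, of which 833 kept their direction and side of the threshold, 26 lost the call, 26 gained it and 25 changed sign. Of 124 values for splicing events 95 stayed and 29 lost the call, all of these with 1 siRNA per target. Sign changes came mostly from single siRNAs. With the first siRNA of each target the log2 fold changes were 0.013 for LMNA and 0.22 for HMGA2 (siSF3B1, DMSO), 0.48 for HMGA2 and −0.12 for HMGB2 (siRBM39, DMSO), 0.073 for HMGA2 (siRBM39, 4OHT), −0.066 for LMNA and 0.10 for LBR (siRBM39, 4OHT minus DMSO), and 0.021 for HMGB1 (4OHT against DMSO in siSF3B1). With the second they were −0.11 for HMGA1 and 0.11 for HMGB2 (siSF3B1, DMSO), −0.12 for LMNB1 (siSF3B1, 4OHT), −0.078 for LMNA, 0.13 for LMNB1, −0.042 for HMGA1 and −0.10 for HMGB3 (siRBM39, DMSO), −0.042 for LMNB2 and 0.13 for HMGA1 (siSF3B1, 4OHT minus DMSO), 0.078 for LMNB2 and 0.11 for HMGA2 (siRBM39, 4OHT minus DMSO), −0.03 for HMGB3 (4OHT against DMSO in siSF3B1) and 0.23 for HMGA2 (siSF3B1 against siRBM39 in 4OHT). Testing all genes with at least 1 count in total gave −0.034 for LMNB2 (siSF3B1, 4OHT minus DMSO). Leaving out a replicate number gave ranges across 0 for LMNB1 (siSF3B1, 4OHT: −0.032 to 0.042), LMNB2 (siSF3B1, 4OHT minus DMSO: −0.019 to 0.045), and, for the siRBM39 effect in 4OHT minus DMSO, LMNA (−0.019 to 0.562) and LBR (−0.113 to 0.051). Without 4OHT siRBM39-08 replicate 4 that LBR value was 0.053. The cause of these changes was not tested.

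With a 1.5-fold minimum, 2 genes were called with siSF3B1 in DMSO, 0 with siRBM39 in DMSO, in 4OHT or in the difference between them (edgeR, where 4, 6 and 2 passed without the minimum), 5 with 4OHT in siRBM39, and 1 and 5 with siSF3B1 against siRBM39 in DMSO and 4OHT. With the first siRNA 9 were called with siRBM39 in DMSO, 6 in the siRBM39 difference and 8 with siSF3B1 against siRBM39 in DMSO, which had 6 without the library that stood apart and 3 with it. Without any 1 replicate number the siRBM39 difference had 1 gene in place of 2 (range 1 to 1). The share of all genes called was not counted for these alternatives. A stricter coverage score left 0 events with siSF3B1 in DMSO and 0 in 4OHT, since HMGA2 exon 4 was no longer tested. Without the balance filter 3 and 3 passed. With no coverage minimum the 5 comparisons had 1, 11, 12, 4 and 4 events, and 1, 11, 12, 5 and 5 without the library that stood apart. There siSF3B1 in DMSO and 4OHT and siRBM39 in DMSO and 4OHT had 8, 10, 4 and 3 events with the first siRNA, and the first 3 of these had 4, 6 and 1 with the second.

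Replicate numbers did not pair the libraries. Over 264 pairs of the same number the correlation of deviations had a median of 0.0121 (−0.893 to 0.781), and 15 of 48 libraries correlated best with their own number. With the replicate block the counts of genes called were 10, 6, 7, 4, 6, 6 and 2, as without it. Scalings moved the median of all genes by less than 0.1. Between 0 and 53 reads per library stood behind the LBR events named, and 3 to 52 behind TMPO exon 5.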

Other observations

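Over the 48 libraries, the genes most like LMNB1 in pattern by Pearson correlation of log2 CPM were VPS52 (r = 0.963), NNAT (0.961) and PJA1 (0.960). Among those most like LMNA were MYL9 (0.968) and COMMD7 (0.965), those most like HMGA1 were TGFB1 (0.925), SHB (0.924) and EFHD2 (0.921), and those most like HMGB2 were HOXA5 (0.98), PTGS1 (0.979) and GOLM1 (0.979). The libraries share the 4OHT and DMSO contrast, so the values describe these libraries and no test was made. Those for LMNA include the 4OHT siRBM39 library that stood apart, at 1481 CPM.

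Markers moved with the knockdowns as follows. Over all genes 36.5% rose and 36.2% fell with siSF3B1 in DMSO, and 39.4% rose and 37.6% fell in 4OHT. The shares with siRBM39 were 23.9% and 22.2% in DMSO, and 32.2% and 24.3% in 4OHT. Of 11 senescence markers tested, 6 rose with siSF3B1 in DMSO, the stress cytokine gene GDF15 by most (log2 fold change 1.85), and IL1A (−0.90) and CDKN2B (−0.60) fell. In 4OHT siSF3B1 5 rose and 5 fell, GDF15 (1.47) and IL6 (−1.85) by most. With siRBM39 IL1B, GDF15, CDKN1A and MMP3 rose and CDKN2B fell in DMSO, and in 4OHT GDF15 (1.06) and CDKN1A (0.37) rose and 7 fell, IL6 by most (−1.97). Fibroblast markers fell for 4 and rose for none of 8 with siSF3B1 in DMSO, and in 4OHT COL3A1 (0.86), LUM (0.55), DCN (0.43) and COL1A2 (0.39) rose and PDGFRB (−1.29), VIM (−0.27) and THY1 (−0.14) fell. KRT8, the one epithelial marker tested, lay at 31.7 cRPKM in the library of 4OHT siRBM39 that stood apart and at 2.90 to 5.57 cRPKM in the other 7.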
